A study of Mus musculus with 2 samples.

Results

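Voltage-gated sodium and calcium channels were examined in 2 RNA-sequencing libraries of mouse tongue. The genes were taken by symbol, as every row whose symbol was *Scn* followed by a digit or began with *Cacna*, *Cacnb* or *Cacng*. The epithelial sodium channel subunits (*Scnn*) were thus not included. The rule found 35 genes among the 18498 rows of the expression table, of which 18043 carried a gene symbol. They comprised 9 sodium channel pores, 4 sodium channel beta subunits, 10 calcium channel pores, 3 alpha-2-delta subunits, 4 calcium channel beta subunits and 5 gamma subunits. *Scn10a*, *Cacna2d4*, *Cacng2*, *Cacng3* and *Cacng8* were not analysed here.

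One library was made from the circumvallate papillae (CvP), the taste papillae at the back of the tongue, and the other from tongue epithelium without papillae (Epi). Both came from untreated male C57BL/6J mice aged 12 to 30 weeks and fed normal chow, and the RNA of at least 20 mice was pooled for each tissue. Each tissue therefore had 1 library and no replicate, so the values compare 2 libraries and carry no p-value. The unit was RPKM, reads scaled to the length of the exon model and to the number of mapped reads, with about 2.84e+07 mapped reads for CvP and 2.79e+07 for Epi as read from the smallest steps of the values. The intervals in brackets are 95% intervals from the reads estimated for a gene. Those of RPKM levels are exact Poisson intervals and cover counting error only. Those of ratios are exact binomial (Clopper-Pearson) intervals and cover counting error and the rounding of the values. Neither covers differences between mice or library preparations. Where Epi was listed at 0, the ratio was calculated against a floor of 3 reads in the Epi library and given as a bound. That bound leaves out the counting error of the CvP reads and the rounding of the values. The lower limit of the interval, which includes the counting error of both libraries and the rounding, is given beside it and is lower.

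A voltage-gated channel opens when the membrane is depolarized. In a sodium channel the pore-forming alpha subunit contains both the ion path and the voltage sensors, and its opening produces the upstroke of the action potential, while small beta subunits alter its gating and its delivery to the membrane. A calcium channel is built around a pore-forming alpha-1 subunit, with a beta subunit on the inner side of the membrane and an alpha-2-delta subunit on the outer side that raise the number of channels at the surface. Cells of the taste bud fire action potentials. Type II cells, which detect sweet, bitter and umami compounds, release ATP through a voltage-gated large-pore channel, whereas type III cells, which detect sour stimuli, form synapses at which calcium channels trigger release.

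The channel genes were mostly low in both tissues and higher in CvP. Of the 35 genes, 25 had at least 10 estimated reads in the libraries together. In 16 of these 25 (64.0%) the CvP level was more than 3-fold the Epi level, against 21.8% of the 15388 rows with as many reads. A gene listed at 0 in Epi that passed the read filter counted as higher in CvP by the rule itself. This holds for every such count, also that of the rows compared. Among the 16 genes it applied to *Scn2a1*, *Scn8a*, *Scn9a*, *Cacna1b*, *Cacna1h* and *Cacna1i*, which passed the filter through CvP reads alone. Only *Cacna1s* was more than 3-fold higher in Epi, against 2.55% of those rows, and the remaining 8 genes lay within 3-fold. High ratios were more frequent among weakly expressed rows. Among the 5103 rows with at least 10 reads and a mean RPKM of at most 2, 46.0% were more than 3-fold higher in CvP and 4.59% more than 3-fold higher in Epi, beside 16 (66.7%) and 1 of the 24 channel genes in that range. The median log2 ratio with a pseudocount of 0.1 was 1.30 in the 24 genes and 1.06 in those rows.

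**Figure D1:**
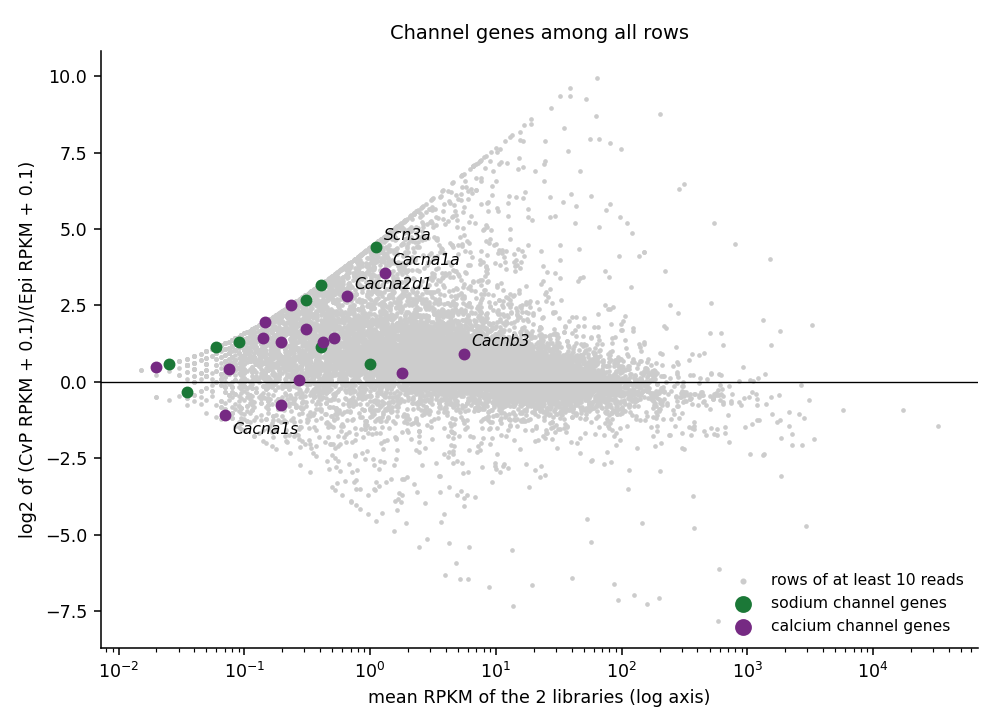
Log2 of the CvP/Epi ratio after adding 0.1 RPKM to both (y axis) against the mean RPKM of the libraries (x axis, log scale), for all rows with at least 10 reads (grey) and the sodium (green) and calcium (purple) channel genes among them. The channel genes lie at low mean RPKM, where the grey rows also spread widely, from 4.40 for *Scn3a* down to -1.06 for *Cacna1s*.

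None of the 35 genes met the criteria used in the study, a CvP RPKM above 10 with a CvP/Epi ratio above 3, which 2.35% of all rows met. A CvP level above 1 RPKM was reached by 6 of the 35, with *Cacnb3*, *Cacna1a*, *Scn3a*, *Cacnb1* and *Cacna2d1* among them, against 66.6% of all rows. In Epi that level was reached by *Cacnb3* and *Cacnb1* alone of the 35, against 57.1% of all rows. The typical row was itself higher in CvP, since the median CvP/Epi ratio of the 10363 rows with at least 1 RPKM in both libraries was 1.31 (0.39 on the log2 scale). Divided by that median, 14 genes stayed more than 3-fold higher in CvP. *Cacna2d2* and *Cacna2d3* then fell to 2.65 and 2.44, and *Cacnb1* and *Cacna1g* changed direction to 0.951 and 0.820. The libraries are of whole tissue, in which fewer cells of a type and less RNA per cell cannot be told apart.

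**Figure D2:**
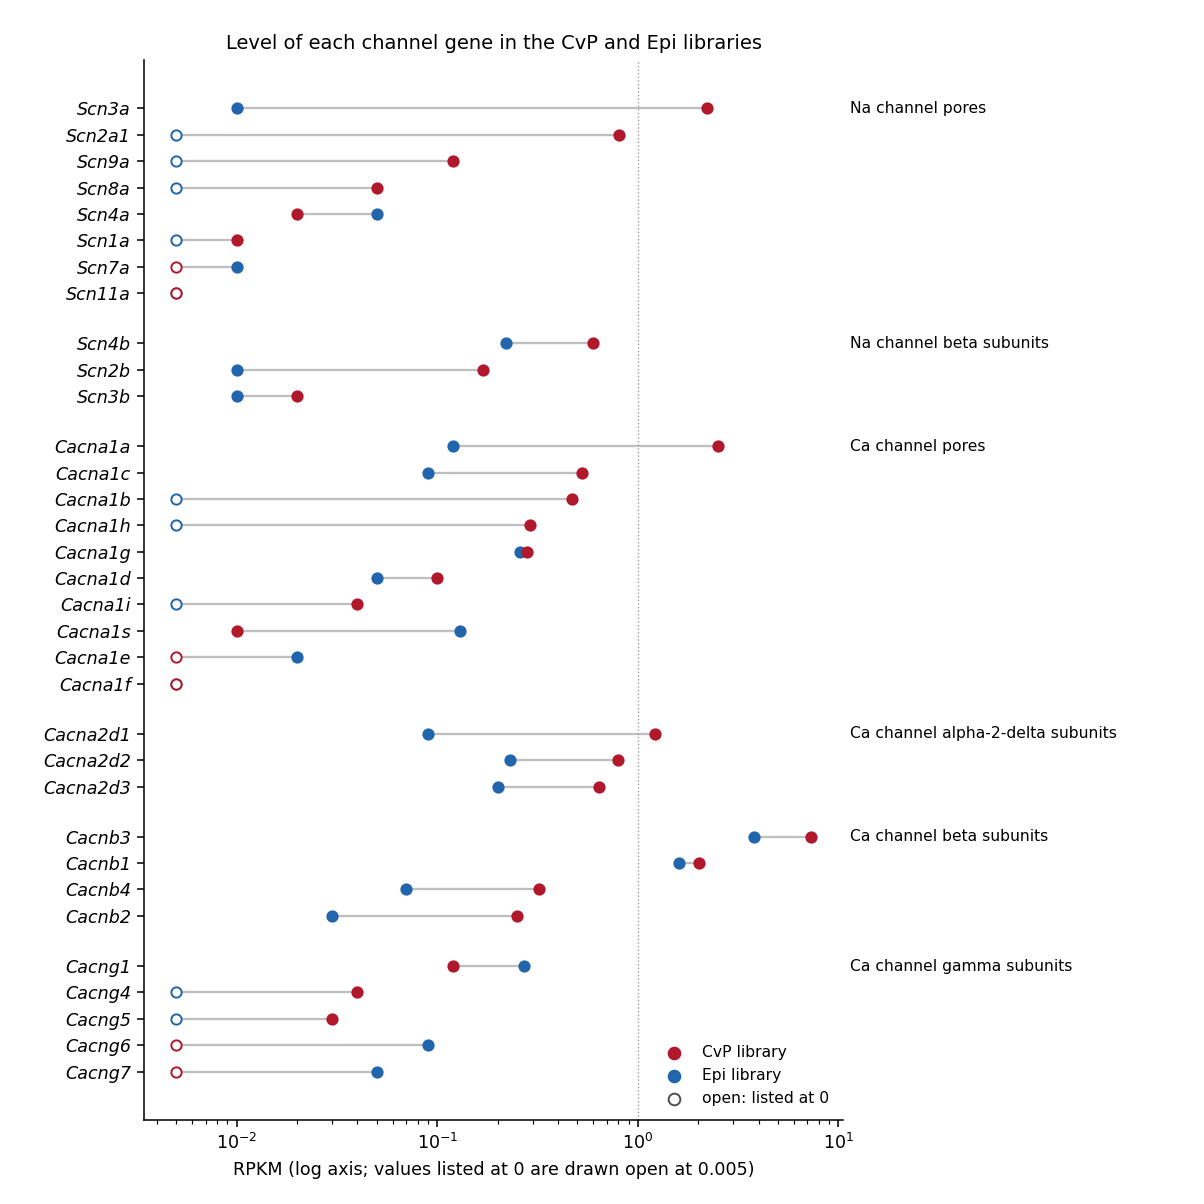
RPKM on a log axis of the channel genes by subunit family, a few not shown, as 1 point for the CvP library (red) and 1 for the Epi library (blue), with values listed at 0 drawn open at 0.005 and the dotted line at 1 RPKM. *Cacnb3* is highest in both tissues, *Scn3a* and *Cacna1a* exceed 2 RPKM in CvP only, and the open points of *Scn11a* and *Cacna1f* stand for both libraries.

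The sodium channel pores differed most between the tissues of the 6 families. Their RPKM summed to 3.84 in CvP and 0.08 in Epi, a 48.0-fold ratio. The Epi sum rests on few reads and rounded values, with 62.5% of it in *Scn4a* (about 9 reads), so this ratio is imprecise. Of the 6 pores with at least 10 reads, 5 were more than 3-fold higher in CvP. Of these, *Scn2a1*, *Scn9a* and *Scn8a* were listed at 0 in Epi and counted as higher by the rule itself. The same held for 21.8% of all rows with as many reads and 46.0% of the weakly expressed ones. In CvP the sum was divided unevenly, with 57.8% in *Scn3a* and 21.1% in *Scn2a1*.

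*Scn3a* (gene ID 20269, chromosome 2, 65295175 to 65405549, NCBI37/mm9) encodes Nav1.3, a tetrodotoxin-sensitive channel best known from developing neurons. It stood at 2.22 RPKM in CvP (2.05 to 2.40, about 602 reads) and 0.01 in Epi (about 3 reads), a ratio of 222 (57.4 to 23504). The upper limit of that interval is high because few Epi reads were present and because the interval includes the rounding of the Epi value. *Scn2a1* (chromosome 2, 65508502 to 65605504) encodes Nav1.2, a tetrodotoxin-sensitive channel of brain neurons. It stood at 0.81 RPKM in CvP (0.703 to 0.932, about 200 reads) and was listed at 0 in Epi, at least 65.5-fold higher in CvP against the floor (lower limit 34.6). In order of CvP level *Scn3a* was clear of *Scn2a1*. Their ratios are not comparable, since that of *Scn3a* uses the listed Epi value and that of *Scn2a1* the floor. The same holds for other genes with few Epi reads, such as *Scn2b*, *Cacnb2* and *Nalcn*, beside genes listed at 0.

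*Scn9a* (chromosome 2, 66318138 to 66473009) encodes Nav1.7, the channel of pain-sensing and sympathetic neurons. It was lower, at 0.12 RPKM in CvP (0.0816 to 0.166, about 33 reads) and 0 in Epi, at least 11-fold higher in CvP against the floor (lower limit 5.26). *Scn8a*, which encodes Nav1.6 of nodes of Ranvier and axon initial segments, stood at 0.05 RPKM in CvP (about 16 reads) and 0 in Epi, at least 5.09-fold higher in CvP against the floor (lower limit 1.58). *Scn4a*, the sodium channel of skeletal muscle, stood at 0.02 RPKM in CvP (about 4 reads) and 0.05 in Epi (about 9 reads), a CvP/Epi ratio of 0.40 whose interval of 0.0522 to 2.13 included 1. The remaining pores had fewer than 10 reads. *Scn1a* was at 0.01 RPKM in CvP and 0 in Epi, *Scn7a* at 0 and 0.01, and *Scn11a* at 0 in both.

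Pores with high CvP/Epi ratios lay in a cluster with pores that were hardly read. *Scn3a*, *Scn2a1*, *Scn1a*, *Scn9a* and *Scn7a* lie in that order within 1.33 Mb of chromosome 2, an interval with 9 rows that have a symbol. Their CvP levels along the chromosome were 2.22, 0.81, 0.01, 0.12 and 0 RPKM, and the highest and lowest levels thus lay within the same cluster.

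**Figure D3:**
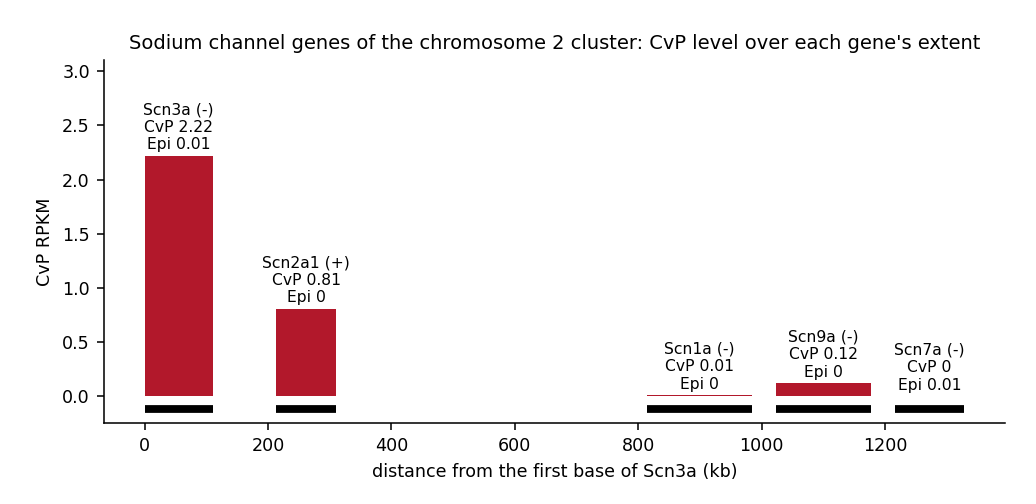
CvP RPKM (bar height) of the sodium channel pore genes of chromosome 2, each bar and black line drawn to scale over the extent of the gene by distance in kb from the first base of *Scn3a*, with strand and both levels written above. CvP levels are 2.22 for *Scn3a* and 0.81 for *Scn2a1* at one end and 0.12 or lower for *Scn1a*, *Scn9a* and *Scn7a*, and Epi levels are at most 0.01.

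The pores of this cluster resemble each other enough that short reads can match more than one of them. Windows of 75 bases, the read length, were taken along the longest coding transcript of each gene (GENCODE M1) and compared with those of the other pores at up to 2 mismatches. A match in another pore was found for 11.6% of the windows of *Scn2a1* (closest *Scn3a*), 10.4% of *Scn3a* (closest *Scn2a1*), 7.82% of *Scn1a* and 6.83% of *Scn9a*, and for none in the other sodium channel pores. How reads with several matches were shared is not given in the sources used here, so the values of these 4 genes carry that uncertainty. The share was at most 0.445% among calcium channel pores and 0 among calcium channel beta subunits.

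Sodium channel beta subunits were more evenly present. Their RPKM summed to 2.0 in CvP and 1.02 in Epi, and 1 of the 3 with at least 10 reads was more than 3-fold higher in CvP. Of all rows with as many reads 21.8% were, and of the weakly expressed ones 46.0%. *Scn4b*, a subunit linked to the pore by a disulfide bond, stood at 0.60 and 0.22 RPKM, a ratio of 2.73 (1.66 to 4.72). *Scn2b*, also disulfide-linked, stood at 0.17 RPKM in CvP (about 22 reads) and 0.01 in Epi (about 1 read), a ratio of 17.0 (2.52 to 932). *Scn2b* and *Scn4b* are neighbours within 36.2 kb of chromosome 9, and their CvP intervals (0.107 to 0.257 and 0.468 to 0.753) did not overlap. *Scn3b* had about 3 reads in CvP and 1 in Epi.

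Calcium channel pores summed to 4.23 RPKM in CvP and 0.67 in Epi, a 6.31-fold ratio. Of the 8 with at least 10 reads, 5 were more than 3-fold higher in CvP and 1 was more than 3-fold higher in Epi. These shares were 21.8% and 2.55% of all rows with as many reads, and 46.0% and 4.59% of the weakly expressed ones. By class of current, the P/Q-type pore *Cacna1a* contained 59.3% of the CvP sum, the L-type pores 15.1%, the T-type pores 14.4% and the N-type pore 11.1%. In Epi the L-type pores contained 40.3%, the T-type pores 38.8% and the P/Q-type pore 17.9%.

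*Cacna1a* (gene ID 12286, chromosome 8, 86939263 to 87164148) encodes Cav2.1, the pore of the P/Q-type channel that drives transmitter release at many synapses. It stood at 2.51 RPKM in CvP (2.31 to 2.73, about 565 reads) and 0.12 in Epi (about 27 reads), a ratio of 20.9 (13.5 to 34.7). Its listed length was 15.2 kb and its longest coding transcript 7.93 kb, from which the reads were estimated, and which length underlies the deposited RPKM is not given in the sources used here. *Cacna1b* (chromosome 2, 24461895 to 24618672) encodes Cav2.2, the N-type pore, which also acts at presynaptic terminals. It stood at 0.47 RPKM in CvP (0.391 to 0.557, about 129 reads) and 0 in Epi, at least 42.4-fold higher in CvP against the floor (lower limit 22.2). *Cacna1e*, the R-type pore, was at 0 in CvP and 0.02 RPKM in Epi (about 7 reads).

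Among L-type pores, *Cacna1c* (Cav1.2, the main pore of heart and smooth muscle) stood at 0.53 RPKM in CvP (0.437 to 0.637) and 0.09 in Epi, a ratio of 5.89 (3.43 to 11). *Cacna1d* (Cav1.3, which opens at relatively negative potentials and is used by hair cells) stood at 0.10 and 0.05 RPKM, a ratio of 2.0 (0.879 to 4.80). *Cacna1d* shares 5.54% of its exon bases with *Chdh* on the other strand, which stood at 4.26 RPKM in CvP and 2.41 in Epi, and the counting is not stated to use strand. *Cacna1f*, the pore of photoreceptors, was at 0 in both. *Cacna1s*, Cav1.1 of skeletal muscle, went the other way, at 0.01 RPKM in CvP (about 2 reads) and 0.13 in Epi (about 23 reads), an Epi/CvP ratio of 13.0 (2.24 to 1003).

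The T-type pores, which open close to the resting potential, split among themselves. *Cacna1h* (Cav3.2; chromosome 17, 25511232 to 25570728) stood at 0.29 RPKM in CvP (0.226 to 0.369, about 68 reads) and 0 in Epi, at least 22.2-fold higher in CvP against the floor (lower limit 11.4). *Cacna1g* (Cav3.1) had nearly the same CvP level, 0.28 RPKM (0.215 to 0.355), yet stood at 0.26 in Epi, a ratio of 1.08 (0.715 to 1.59). *Cacna1i* (Cav3.3) was at 0.04 RPKM in CvP (about 11 reads) and 0 in Epi, at least 3.64-fold higher in CvP against the floor (lower limit 1.40). Of the T-type pores, *Cacna1g* alone was listed above 0 in Epi.

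**Figure D4:**
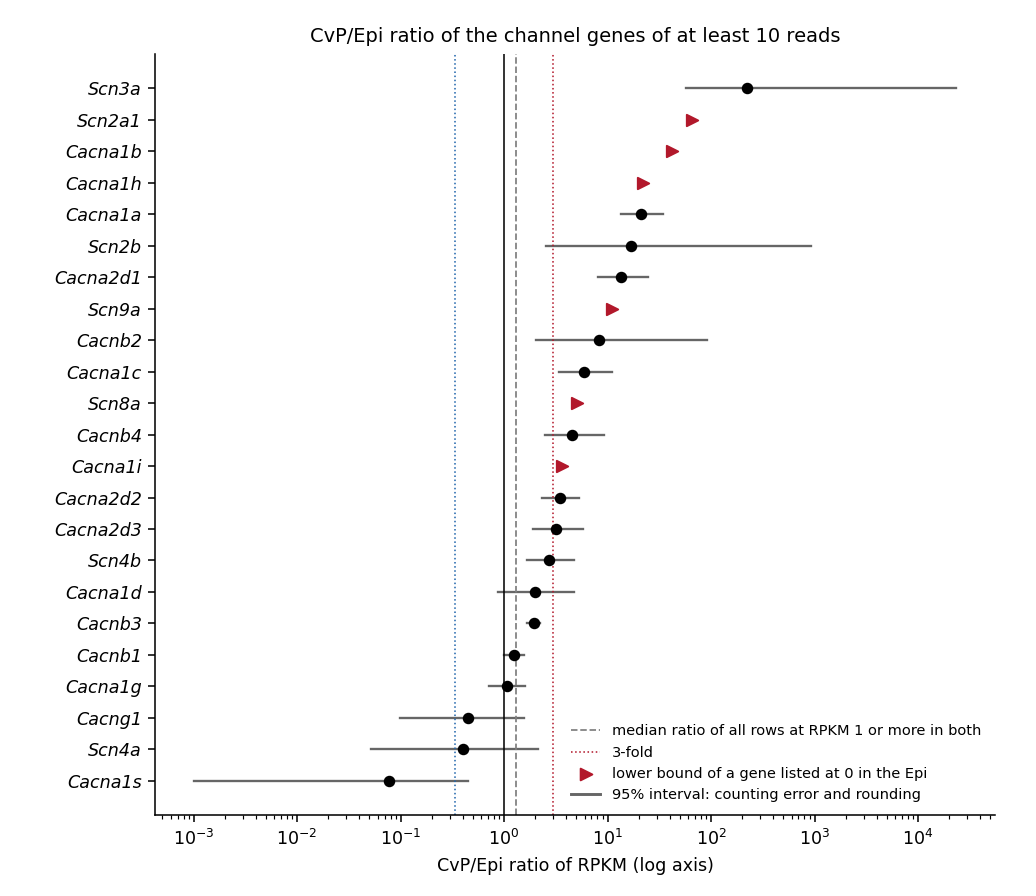
CvP/Epi ratio of RPKM (log axis) of the channel genes with at least 10 estimated reads, a few not shown, with 95% intervals of counting error and rounding as bars and red triangles for lower bounds where Epi was listed at 0. Dotted lines mark 3-fold differences and the dashed line the median ratio of 1.31, and *Cacna1s* is the only gene below the lower dotted line.

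All 3 alpha-2-delta subunits were more than 3-fold higher in CvP, with sums of 2.66 RPKM in CvP and 0.52 in Epi. The same held for 21.8% of all rows with at least 10 reads and 46.0% of the weakly expressed ones. These subunits carry the channel to the surface, and *Cacna2d1* and *Cacna2d2* bind gabapentin. *Cacna2d1* (chromosome 5, 15440509 to 15880329) stood at 1.22 RPKM in CvP (1.08 to 1.38, about 259 reads) and 0.09 in Epi, a ratio of 13.6 (8.05 to 24.4). *Cacna2d2* stood at 0.80 and 0.23 RPKM, a ratio of 3.48 (2.34 to 5.35), and *Cacna2d3* at 0.64 and 0.20, a ratio of 3.2 (1.90 to 5.81). The intervals of both ratios reached below 3. In CvP the interval of *Cacna2d1* was clear of the others, which overlapped each other.

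The calcium channel beta subunits, which bind the inner face of the pore and protect it from degradation, contained the highest levels of the 35 genes. *Cacnb3* (chromosome 15, 98462651 to 98474961) stood at 7.31 RPKM in CvP (6.73 to 7.93, about 585 reads) and 3.79 in Epi (about 298 reads), a ratio of 1.93 (1.67 to 2.23). It contained 73.9% of the beta subunit sum in CvP and 68.9% in Epi. *Cacnb1*, the beta subunit of skeletal muscle and also present elsewhere, stood at 2.01 and 1.61 RPKM, a ratio of 1.25 (0.998 to 1.56). The less abundant subunits differed more. *Cacnb4*, a beta subunit of brain, stood at 0.32 and 0.07 RPKM, a ratio of 4.57 (2.50 to 9.34), and *Cacnb2*, the beta subunit of heart, at 0.25 and 0.03, a ratio of 8.33 (2.06 to 90.9). *Cacnb4* shares 16.0% of its exon bases with the antisense non-coding gene *A430018G15Rik*, and reads of the pair cannot be told apart without strand. The listed lengths of *Cacnb3*, *Cacnb1*, *Cacna1a* and *Cacna1c* were more than 1.5 times their longest coding transcripts, so the order of these levels against other genes is uncertain.

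Gamma subunits were nearly unread, with sums of 0.19 RPKM in CvP and 0.41 in Epi. *Cacng1*, the gamma subunit of the skeletal muscle calcium channel, stood at 0.12 RPKM in CvP (about 4 reads) and 0.27 in Epi (about 9 reads), a CvP/Epi ratio of 0.444 (0.0984 to 1.57). *Cacng4*, *Cacng5*, *Cacng6* and *Cacng7* each had fewer than 10 reads. The 10 genes under 10 reads, these 4 included, reached at most 0.04 RPKM in CvP and 0.09 in Epi, and a difference between the tissues was not detectable in them at this depth.

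Of the channel genes described above as those of skeletal muscle, *Cacna1s*, *Scn4a* and *Cacng1* were higher in Epi in listed value, although the intervals of *Scn4a* and *Cacng1* included 1, and *Cacnb1* was higher in CvP in listed value with an interval that also included 1. The alpha-2-delta subunits, which calcium channels also contain, were higher in CvP, with sums of 2.66 and 0.52 RPKM and *Cacna2d1* at 1.22 and 0.09. Markers of skeletal muscle were higher in Epi, where 2.55% of all rows with at least 10 reads were more than 3-fold higher. All 16 markers were lower in CvP, 14 of them more than 3-fold, and their sum was 9.18 RPKM in CvP and 86.1 in Epi, with *Acta1* at 0.86 and 12.9, *Tnni2* at 2.53 and 12.3 and *Tnnc2* at 0.76 and 11.1. The part of muscle fibres in these channel values was not tested.

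Markers of taste cells were present in CvP beside the channel genes that were higher there. Of all rows with at least 10 reads, 21.8% were more than 3-fold higher in CvP and 2.55% in Epi. Type III markers summed to 96.5 RPKM in CvP and 1.34 in Epi, 7 of the 8 with at least 10 reads being more than 3-fold higher in CvP, among them *Pkd1l3* (47.6 and 0.40), *Pkd2l1* (16.8 and 0) and *Snap25* (11.1 and 0). Type II markers summed to 395 and 22.9 RPKM, 8 of 9 more than 3-fold higher in CvP, among them *Gnat3* (127 and 0.03), *Gng13* (77.4 and 0) and *Plcb2* (70.0 and 0.12). Type I markers summed to 224 and 67.4, 3 of 5 higher, with *Tmprss4* (154 and 59.0), *Entpd2* (54.8 and 4.53) and *Kcnj1* (13.5 and 0) highest, and 1 was more than 3-fold higher in Epi (*Slc1a3*, 1.04 and 3.82).

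Markers of other cells that can carry these channels also moved. Their counts stand beside 21.8% of all rows with at least 10 reads, and 46.0% of the weakly expressed ones, higher in CvP. The shares higher in Epi were 2.55% and 4.59%. Of the neuron markers, 5 of the 6 with at least 10 reads were more than 3-fold higher in CvP, with *Nefl* at 2.32 and 0 RPKM and *Elavl4* at 0.66 and 0, whereas *Tubb3* stood at 4.58 and 40.4 and *Gap43* at 0 in both. The neuron list summed to 8.26 RPKM in CvP and 40.5 in Epi. Schwann cell and glia markers summed to 12.8 and 9.68, 4 of 7 more than 3-fold higher in CvP, with *Mbp* at 10.3 and 8.94 and *Prx* at 0.66 and 0.28. Smooth muscle markers summed to 19.0 and 26.4, none of 5 more than 3-fold higher in CvP and 2 more than 3-fold higher in Epi, with *Smtn* at 16.6 and 22.2, *Des* at 0.12 and 2.25 and *Tagln* at 1.75 and 1.22. Endothelial markers summed to 7.31 and 0.50 (*Vwf* 4.45 and 0.09, *Tek* 2.49 and 0.07, *Pecam1* 0.28 and 0.12), 2 of 4 more than 3-fold higher in CvP and 1 more than 3-fold higher in Epi (*Tie1*, 0.03 and 0.14). Which of these cells contributed the channel transcripts was not tested.

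The other lists described the tissues as a whole. Immune markers summed to 183 RPKM in CvP and 8.58 in Epi (*Lyz2* 132 and 0.43, *Cd14* 20.4 and 0.94, *Cd68* 10.8 and 4.45), 8 of 9 more than 3-fold higher in CvP. That compares with 21.8% of all rows with at least 10 reads. Fibroblast markers summed to 27.5 and 128, nearly all of it *Dcn* (26.1 and 128), with *Pdgfra* at 1.30 and 0.07 and *Col3a1* at 0.05 and 0.25. Of these 6 markers 4 were more than 3-fold higher in Epi and 1 in CvP, against 2.55% and 21.8% of all rows with at least 10 reads. Salivary gland markers summed to 4.20 and 430 (*Lipf* 1.96 and 313, *Amy1* 0.85 and 80.5, *Psp* 0.07 and 27.2). Markers of tongue epithelium were abundant in both tissues, at 37837 and 95448, led by *Krt13*, *Krt4* and *Krt6a*.

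Genes whose products bind the channels were read as well. Of 11 sodium channel partners 10 had at least 10 reads, and 5 of these were more than 3-fold higher in CvP and none in Epi, beside 21.8% of all rows with as many reads and 46.0% of the weakly expressed ones. *Fgf13* and *Fgf14*, fibroblast growth factor homologous factors that bind the tail of the pore, stood at 3.26 and 0.16 RPKM (ratio 20.4, 11.3 to 42.0) and at 3.80 and 0 (at least 128-fold higher in CvP against the floor, lower limit 68.3). *Gpd1l*, which alters delivery of sodium channels, stood at 9.83 and 1.06 (ratio 9.27, 7.67 to 11.3), and *S100a10*, which carries sodium channels to the membrane, at 152 and 46.9 (ratio 3.23, 3.0 to 3.49).

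Of 16 calcium channel partners 15 had a row and 14 had at least 10 reads. Of these 4 were more than 3-fold higher in CvP and 1 more than 3-fold higher in Epi, a share in CvP near the 21.8% of all rows and below the 46.0% of weakly expressed rows. *Stac*, an adaptor that reduces inactivation of L-type channels, stood at 2.16 RPKM in CvP and 0.05 in Epi (ratio 43.2, 15.3 to 260.2). Its relative *Stac2* stood at 0.03 and 0.41 (Epi/CvP ratio 13.7, 3.62 to 153). *Camk2b*, a subunit of the calcium/calmodulin-dependent kinase, stood at 1.95 and 0.06 (ratio 32.5, 14.9 to 101), and *Cabp1*, a calcium sensor that binds Cav pores, at 1.19 and 0 (at least 17.9-fold higher in CvP against the floor, lower limit 14.2).

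Genes for proteins that hold calcium channels beside synaptic vesicles, or that prime vesicles or sense calcium for their fusion, were also read in CvP. Of 10 such genes 9 had a row and at least 10 reads, and 5 of the 9 were more than 3-fold higher in CvP and none in Epi, beside 21.8% of all rows and 46.0% of weakly expressed rows. *Syt1*, a calcium sensor of vesicle fusion, stood at 2.31 RPKM in CvP and 0.03 in Epi (ratio 77.0, 27.5 to 464). *Pclo*, a scaffold of the active zone, stood at 0.97 and 0 (at least 181-fold higher in CvP against the floor, lower limit 61.4). *Unc13a*, which primes vesicles, stood at 0.97 and 0.08 (ratio 12.1, 7.05 to 22.2), and *Rimbp2*, which links RIM proteins to Cav pores, at 0.69 and 0 (at least 27.4-fold higher in CvP against the floor, lower limit 14.3).

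**Figure D5:**
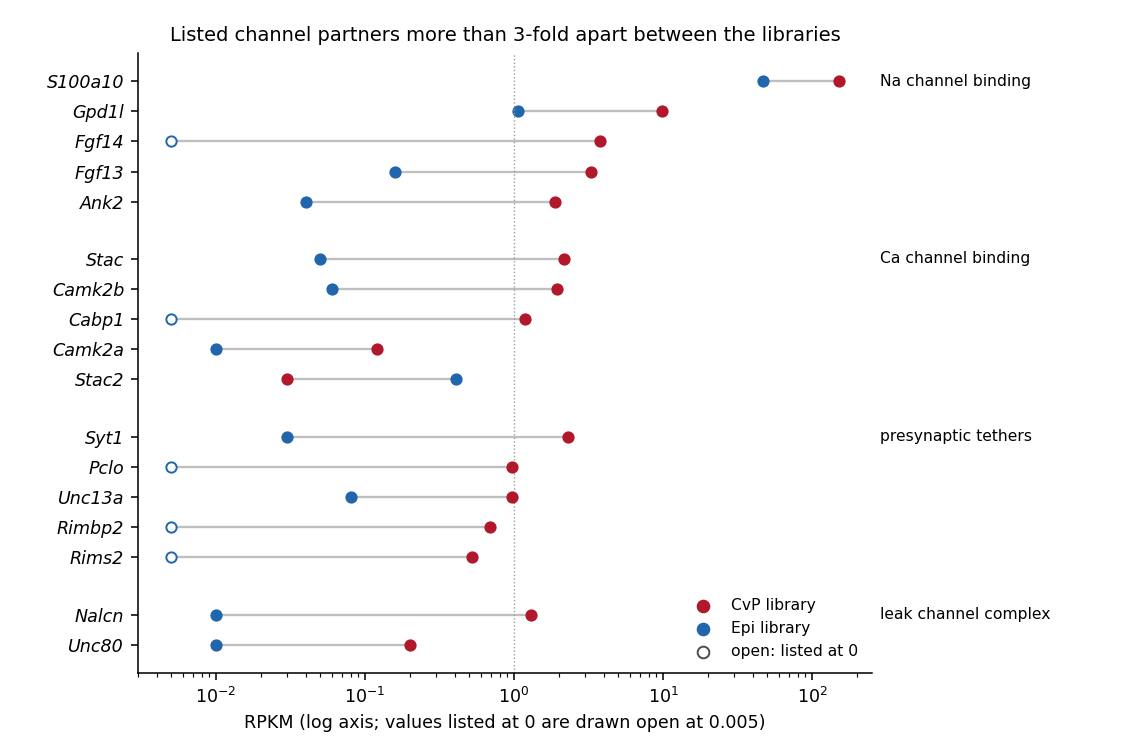
RPKM on a log axis, in the CvP library (red) and the Epi library (blue), of the listed partner genes and leak channel genes more than 3-fold apart, with values listed at 0 drawn open at 0.005 and the dotted line at 1 RPKM. *Stac2* (0.03 and 0.41) is higher in Epi and the others are higher in CvP, for example *Fgf14* (3.80 and 0) and *Syt1* (2.31 and 0.03).

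Of 10 genes for other voltage-dependent sodium and calcium pores and their partners, 7 had at least 10 reads and 2 were more than 3-fold higher in CvP, a share near the 21.8% of all rows. These were *Nalcn*, the sodium leak channel, at 1.29 and 0.01 RPKM (ratio 129, 28.7 to 10178), and *Unc80*, a subunit of its complex, at 0.20 and 0.01 (ratio 20.0, 5.39 to 326). Of 6 calcium release channels of internal stores, 5 had at least 10 reads, and 1 of these was more than 3-fold higher in CvP and 1 in Epi. The shares of all rows with as many reads were 21.8% and 2.55%. *Itpr1*, an IP3 receptor, stood at 2.48 and 0.38 RPKM (ratio 6.53, 5.23 to 8.23), and *Ryr3*, a ryanodine receptor, at 0.01 and 0.05 (Epi/CvP ratio 5.0, 1.11 to 107).

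Sequence upstream of the start was available for 26 of the 35 genes, as 37 RefSeq windows on GRCm38.p6 of 250 bases before and 50 after a start. Each was searched on both strands for the TATA box (letters TATAAA), the CCAAT box, the GC box (letters GGGCGG) and an E-box (letters CAGCTG). Matches of the CCAAT box on the reverse strand and of the GC box can share bases. The E-box was present in 10 of the 37 windows (27.0%), against 16.3% of all 32851 windows in the table, the GC box in 16 (43.2%) against 35.7%, the CCAAT box in 10 (27.0%) against 37.4%, and the TATA box in 2 (5.41%) against 13.6%. Windows of 1 gene overlap in part, so these shares are descriptions. An observed to expected CpG ratio above 0.6 was found in 1 of 9 windows of sodium channel pores and 14 of 26 windows of calcium channel genes, against 35.8% of all windows.

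The 250 bases before the start are printed for 4 genes with high CvP/Epi ratios, to show how far apart their starts are in composition. Motif matches on either strand are in capitals. Of the printed windows, only that of *Cacna2d1* had the first bases after its start within the longest coding transcript of its gene (GENCODE M1). For the other genes these bases were not found in that transcript. The *Scn2a1* window (47.7% G+C over the 300 bases) contains the TATA box, the *Scn9a* window (57.3%) contains none of the motifs, the *Cacna1b* window (72.3%) contains the CCAAT box, the GC box and the E-box, and the *Cacna2d1* window (80.0%) contains the GC box several times. A second *Scn2a1* start has a window of 33.0% G+C with none of the motifs.
Scn2a1, chr2:65668436-65668685, plus strand: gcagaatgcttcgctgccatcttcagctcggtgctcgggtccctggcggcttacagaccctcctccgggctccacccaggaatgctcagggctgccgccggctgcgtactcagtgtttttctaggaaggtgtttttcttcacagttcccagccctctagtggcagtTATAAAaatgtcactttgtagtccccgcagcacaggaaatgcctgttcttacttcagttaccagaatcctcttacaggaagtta
Scn9a, chr2:66634963-66635212, minus strand: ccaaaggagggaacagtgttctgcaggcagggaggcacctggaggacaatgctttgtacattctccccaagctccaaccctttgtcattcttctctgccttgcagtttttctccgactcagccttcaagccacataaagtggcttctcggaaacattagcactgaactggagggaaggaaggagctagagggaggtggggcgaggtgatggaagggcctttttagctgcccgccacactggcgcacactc
Cacna1b, chr2:24763153-24763402, minus strand: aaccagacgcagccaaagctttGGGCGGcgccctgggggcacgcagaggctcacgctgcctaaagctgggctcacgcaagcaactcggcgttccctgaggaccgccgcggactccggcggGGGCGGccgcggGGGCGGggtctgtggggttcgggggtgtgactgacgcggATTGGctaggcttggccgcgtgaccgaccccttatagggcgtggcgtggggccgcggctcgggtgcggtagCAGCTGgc
Cacna2d1, chr5:15934441-15934690, plus strand: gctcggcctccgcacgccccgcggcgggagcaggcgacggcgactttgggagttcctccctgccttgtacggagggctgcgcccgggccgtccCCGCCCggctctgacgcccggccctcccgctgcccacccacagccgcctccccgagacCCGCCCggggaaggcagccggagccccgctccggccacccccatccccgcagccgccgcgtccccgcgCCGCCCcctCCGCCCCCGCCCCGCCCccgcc

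With the lower limit of the interval in place of the ratio, 9 of the 16 genes stayed above 3-fold. Among them were the pores *Scn2a1*, *Scn3a*, *Scn9a*, *Cacna1a*, *Cacna1b*, *Cacna1c* and *Cacna1h* and the subunit *Cacna2d1*. The other 7 (*Scn8a*, *Scn2b*, *Cacna1i*, *Cacna2d2*, *Cacna2d3*, *Cacnb2* and *Cacnb4*) had lower limits of at most 3, and all 16 lower limits were above the median ratio of 1.31. Since the 16 genes were chosen by these same ratios and reads, their lower limits are no separate evidence of a difference.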

How the data were processed

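The authors sequenced poly(A)+ RNA libraries (TruSeq RNA, 75-base single reads), mapped the reads with Bowtie 0.12.7 to NCBI37/mm9 and deposited RPKM values made with ERANGE, with 2 decimals, a length and a position per row. The treatment of reads with several matches, and use of strand, are not given in the sources used here. The deposited CvP/Epi ratio column was not used.

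Depth was read from the RPKM step in 163 rows of 0.1 kb. Reads per gene are RPKM times depth times length, taken as the listed length or the longest GENCODE M1 coding transcript, whichever is shorter, so they are approximate. Ratios are of deposited RPKM, with exact binomial intervals widened for rounding of 0.005. Log2 ratios used a pseudocount of 0.1, so changes of low genes are understated. The calculations were tested on simulated data. The genes, the 17 lists of partners and cell markers and the rules were chosen with earlier results of these data known. Named are all channel genes with at least 10 reads, up to 4 partners per list beyond 3-fold and the 3 highest markers per cell type. A few genes under that rule are in the counts, sums and medians but are not reported here by name. Other genes named, such as *Gap43* and *Chdh*, were chosen after their values were seen. Python 3.11.15, numpy 2.4.6, pandas 2.3.3, scipy 1.17.1 and matplotlib 3.10.9 were used.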

Additional observations from a re-analysis of the deposited data

How the results depend on the processing

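No paired analysis was possible because CvP and Epi had 1 pooled library each. The count of 16 channel genes more than 3-fold higher in CvP ranged from 12 (at least 30 reads) to 19 (no filter on reads) under the other filters, scalings and ratio minimums of 2 and 5, and fell to 2 with a pseudocount of 1, since most levels are below 1 RPKM. The count of 1 higher in Epi became 5 without the filter on reads, 0 with at least 30 reads, 2 (*Scn4a* added) with ratios divided by the median ratio, 0 with a pseudocount of 1 and 3 at a ratio minimum of 2. The median log2 ratio of 1.30 became 0.57 without the filter, 1.89 with both libraries rescaled to a common sum and 0.31 with a pseudocount of 1. At a minimum CvP RPKM of 1 in place of 10, 3 genes (*Cacna1a*, *Cacna2d1* and *Scn3a*) met the criteria of the study in place of 0. The count above 1 RPKM in CvP rose from 6 to 12 at a minimum of 0.5, and that in Epi fell from 2 to 1 at a minimum of 2. Of 88 alternatives of the 25 single ratios, 54 stayed within the interval of the ratio and 34 moved beyond it. A change of direction was counted only for genes whose interval excluded 1, and the settings used could not reverse any of these, so the count of 0 shows nothing. *Cacnb1* and *Cacna1g*, whose intervals included 1, did change direction after division by the median ratio, to 0.951 and 0.820. Apart from fewer genes or reads passing a filter, the causes of these shifts were not tested. Over all rows, CvP contained 89.5% of the rows beyond 3-fold as deposited, 82.6% after division by the median ratio and 92.9% with a common sum. The restriction to a mean RPKM of at most 2 was chosen after seeing the data. With 1 library per tissue the differences between mice, dissections and library preparations were not measured, and a gene with fewer than about 10 reads shows no usable ratio at this depth.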
